A study of Mus musculus with 15 samples.

Results

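The response of the mouse liver to MCOPPB was measured over both diets at once, by setting the 8 livers of treated mice against the 7 livers of mice given saline. The libraries were chosen by their titles, and all 15 of the series entered. Of 54281 gene entries, the 11568 whose level reached at least 22.5 normalized counts in at least 3 libraries were tested. A single effect of MCOPPB per gene was fitted with diet as a further term, so that a constant difference between the diets did not enter it. MCOPPB binds the NOP receptor, the member of the opioid receptor family that responds to the peptide nociceptin, and the series title names it as a senolytic, an agent that removes senescent cells.

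All animals were male C57BL6J mice aged 9.5 months, and the titles number the libraries as separate mice. Nothing else in the labels says how animals were housed or paired. The chow saline group held 3 mice and the chow MCOPPB group 5. The DEN/HFD saline group held 4 and the DEN/HFD MCOPPB group 3. DEN/HFD mice had been injected with the liver carcinogen diethylnitrosamine (DEN, 25 mg/kg) at 2 weeks of age and fed for 32 weeks on a high fat diet (HFD) with 60% of its energy as fat, so that carcinogen and diet cannot be told apart. Chow mice had been injected with the vehicle of DEN. MCOPPB was injected intraperitoneally at 5 mg/kg in 3 weekly cycles of 5 daily injections and 2 days of washout, and the control mice were injected with saline. Every treated liver therefore comes from the same dose and schedule.

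As background, the liver of the mouse expresses many genes at different levels in males and females. The pattern is set largely by the timing of growth hormone release: pulses, as in males, switch on the transcription factor STAT5b in bursts and maintain male-biased genes, while near-continuous hormone maintains female-biased genes. Male-biased genes include most major urinary proteins (Mup), which are secreted carriers of pheromones, and enzymes such as Hsd3b5 and Cyp4a12a. Female-biased genes include several cytochromes P450 of the 2a, 2b and 2c families. The pattern can also shift within males when hormone release, feeding or liver health changes. Cholesterol synthesis, a separate hepatic programme, is switched on by the transcription factor SREBP2 when sterols in the cell are low.

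Estimated depth ranged from 9.33 to 18.7 M reads per library, where M stands for 1e6. All 31 hepatocyte markers listed passed the level filter. Mitochondrially encoded transcripts took 12% to 31.0% of normalized counts, highest in chow MCOPPB 4 and chow saline 2. The first RNA integrity number (RIN) in the labels was 9.9 to 10 in chow MCOPPB, 9 to 9.7 in chow saline, 8.7 to 9.2 in DEN/HFD MCOPPB and 8.4 to 9.2 in DEN/HFD saline. By this label RNA integrity was higher with MCOPPB on chow and overlapped between treatments under DEN/HFD. The second RIN in the labels was 8.9 to 9.6 with MCOPPB and 8.9 to 9.1 with saline on chow, and 9.1 to 9.6 and 8.9 to 9.2 under DEN/HFD. In bulk tissue, fewer cells of a type and less RNA per cell cannot be told apart.

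MCOPPB changed 43 genes across the diets, and most of them were genes of the sex-biased programme: female-biased genes rose, and male-biased genes with the major urinary proteins fell. These 43 genes (0.372% of those tested) passed limma at an adjusted p under 0.05, with 16 higher (0.138%) and 27 lower (0.233%). Of them, 31 stood on the female-biased, male-biased or Mup lists, which together held 67 tested genes, so that 46.3% of the listed genes were called. The lists were chosen with earlier results of these data known, so their shares, here and below, are a description and not independent support. Cholesterol synthesis added 3 rises. The size of the effect ran from 0.60 to 4.05 on the log2 scale with a median of 1.56, and 34 genes changed by at least 1. These log2 differences are of variance-stabilised values, which compress low levels, so that they understate the fold change of genes with few counts.

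Every one of the 43 genes had the same sign on chow and under DEN/HFD, a condition that the fit favours but does not require. Over all tested genes 47.3% did. The median size was 1.79 on chow and 1.34 under DEN/HFD, and 32 of the 43 were larger on chow. In 30 of the 43, with 8 higher and 22 lower, the MCOPPB and saline libraries did not overlap within either diet. By comparison, 52 of all tested genes (0.45%) separated in this way in the same direction, the 30 included. The same libraries had chosen the 43, which favours such a separation, so the comparison is a description only. Tested within a diet, 19 of the 43 were also called on chow, where 37 genes (0.32%) were called, and 1 under DEN/HFD, where 3 genes (0.0259%) were. The other 23 were called only when both diets were fitted together.

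The count depended on RNA integrity as a covariate. With the first RIN in the fit 3 genes were called, and with the second, as the labels list a pair, 8 were. The median effect of the 43 genes was 1.51 and 1.61 with these covariates, beside 1.56, while the median standard error rose from 0.27 to 0.35. All 43 kept their sign and an unadjusted p under 0.05 in both fits, but the same libraries had chosen them. Treatment and RNA integrity partly coincided. Diet alone explained 0.04 of the variance of treatment, and diet with the first or second RIN 0.42 or 0.43. The part of RNA integrity in these effects was not tested further. Without chow saline 2 the count was 25, and without DEN/HFD MCOPPB 3 it was 26.

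**Figure D1:**
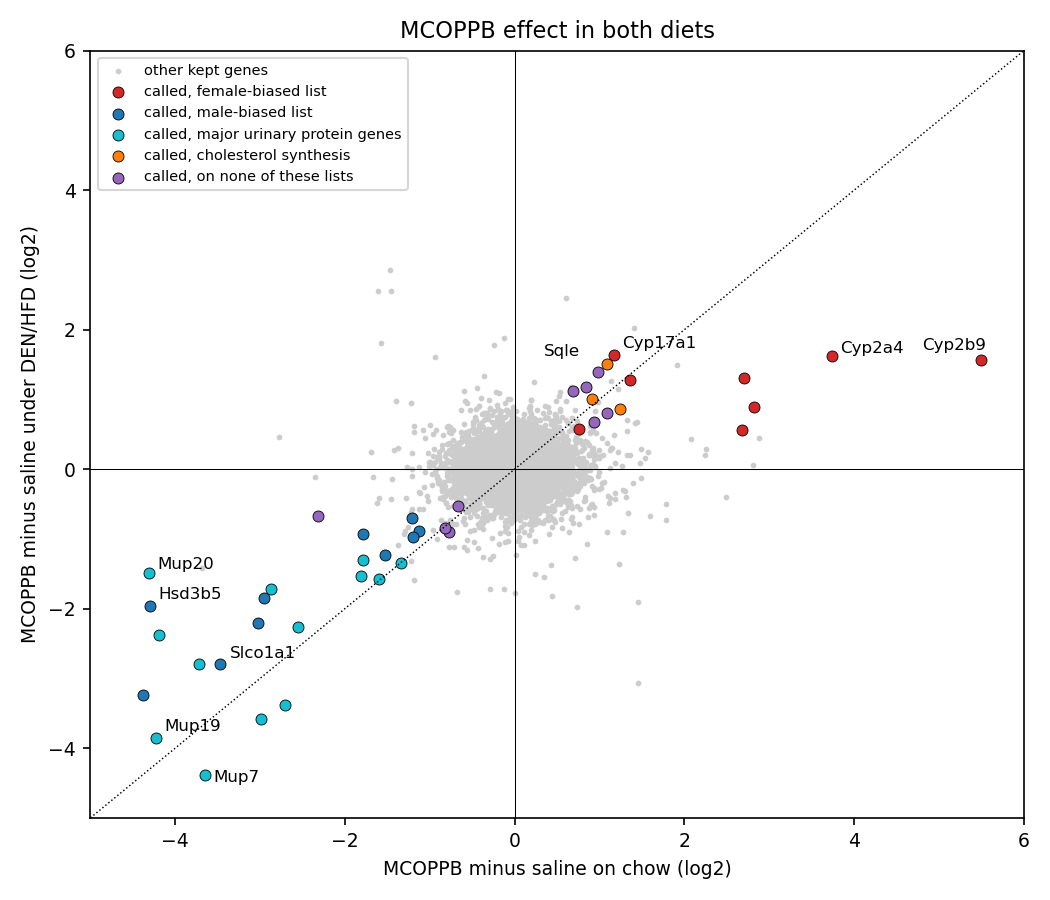
Each point is a tested gene, with its MCOPPB minus saline difference on chow (x axis, log2) and under DEN/HFD (y axis, log2), and the 43 called genes are coloured by list. All 43 have the same sign on both axes, and 32 of them lie between the chow axis and the dotted line of equal effects.

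Of 29 tested female-biased genes, 8 rose with MCOPPB (27.6%, beside 0.138% of all tested genes). Of the 8, 5 were cytochromes P450, and none of the 29 fell. In all, 28 of the 29 had a positive effect, and 27 were positive in both diets. Their median effect was 0.74 (1.13 on chow and 0.52 under DEN/HFD), beside a median of nearly 0 over all tested genes. The called members were Cyp17a1, Cyp2b9, Cyp2a22, Cyp2b13, Slc22a27, Cyp2a4, Slc22a26 and Gstt3. The count was 5 without any 1 of the 3 chow saline livers, chow MCOPPB 3 or DEN/HFD MCOPPB 2. A further 17 members did not pass although their unadjusted p was under 0.05, and none of that kind was lower.

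Cyp17a1 encodes the steroid 17-hydroxylase, which makes precursors of androgens and estrogens. On chow it stood at 141, 167 and 242 normalized counts with saline and at 286, 473, 495, 668 and 686 with MCOPPB. Under DEN/HFD it stood at 132, 184, 206 and 279 with saline and at 559, 855 and 985 with MCOPPB. All 8 treated livers lay above all 7 saline livers. Its common effect was 1.39 ± 0.18 on the log2 scale (SE, limma adjusted p = 0.00169), with 1.17 on chow and 1.64 under DEN/HFD. Among the called female-biased genes it was the one with the larger effect under DEN/HFD.

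Cyp2b9 (ENSMUSG00000040660.6) and Cyp2b13 (ENSMUSG00000040583.8) are near-identical female-biased P450 genes that lie side by side on chromosome 7. Their promoters are shown because these were the called genes whose effect also differed between the diets. The windows run from 250 bases before to 50 after the RefSeq start on the plus strand of GRCm38.p6, at chr7:26173159-26173458 for Cyp2b9 and chr7:26061245-26061544 for Cyp2b13. Capitals mark the 2 positions at which they differ, an identity of 99.3% over 300 bases.
Cyp2b9: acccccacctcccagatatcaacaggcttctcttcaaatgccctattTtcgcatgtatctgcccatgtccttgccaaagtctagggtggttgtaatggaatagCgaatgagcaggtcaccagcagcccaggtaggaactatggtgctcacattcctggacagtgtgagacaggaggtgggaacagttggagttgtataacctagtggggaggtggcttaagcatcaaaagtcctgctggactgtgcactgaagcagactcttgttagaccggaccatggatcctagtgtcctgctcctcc
Cyp2b13: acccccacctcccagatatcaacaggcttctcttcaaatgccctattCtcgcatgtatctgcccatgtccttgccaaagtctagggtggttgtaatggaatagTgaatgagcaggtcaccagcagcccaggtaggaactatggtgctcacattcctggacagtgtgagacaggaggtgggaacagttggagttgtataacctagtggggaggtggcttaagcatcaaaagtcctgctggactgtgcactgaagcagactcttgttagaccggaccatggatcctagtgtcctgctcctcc
The transcribed end of the window is identical in both, so reads from there cannot be assigned to either gene alone, and values of the single genes are less certain than those of the pair.

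Cyp2b9 was at 0, 18.4 and 30.4 normalized counts in chow saline and at 2115 to 4341 in the 5 chow MCOPPB livers. Under DEN/HFD the saline livers already stood at 181, 339, 447 and 487, and the MCOPPB livers at 1011, 1250 and 1310. The treated livers were above the saline livers in each diet, and the chow saline livers were the lowest of all. Over both diets the effect was 3.62 ± 0.50 (SE, limma adjusted p = 0.00223). It combined 5.5 on chow with 1.57 under DEN/HFD, a difference between the diets of -3.93 ± 0.42 that itself passed (limma adjusted p = 0.00046).

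Cyp2b13 also rose. It was at 0 in the 3 chow saline livers, at 140 to 446 normalized counts in chow MCOPPB, at 10.4 to 25.9 in DEN/HFD saline and at 66.9, 68.5 and 84.9 in DEN/HFD MCOPPB. Since its chow saline libraries hold no count, its effect on chow is not a fold change. The common effect was 1.89 ± 0.27 (SE, limma adjusted p = 0.00239), and the difference between diets was -1.93 ± 0.32 (limma adjusted p = 0.0394). Both Cyp2b genes were called in each of the 15 fits that left out 1 library.

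Cyp2a22 and Cyp2a4, P450 genes of the coumarin and steroid hydroxylating 2a family, also rose. Cyp2a22 was at 34.7, 48.7 and 63.2 normalized counts in chow saline and at 531 to 981 in chow MCOPPB. With DEN/HFD it was at 10.8, 81.3, 165 and 230 with saline and at 229, 354 and 478 with MCOPPB, where the highest saline and the lowest treated liver were level. Its common effect was 2.04 ± 0.29 (SE, limma adjusted p = 0.00239). Cyp2a4 went from 0, 16.7 and 17.8 to between 220 and 2603 on chow. Under DEN/HFD it stood at 2.11, 185, 246 and 295 with saline and at 216, 612 and 1162 with MCOPPB, so that the treatments overlapped there. Its effect of 2.73 ± 0.55 (SE, limma adjusted p = 0.0335) was called in 8 of the 15 fits that left out 1 library, with an adjusted p of up to 0.115 (without chow saline 2). Without DEN/HFD saline 4 its effect under DEN/HFD was 0.99 in place of 1.62.

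Slc22a26 and Slc22a27, organic anion transporters of female liver, and Gstt3, a glutathione transferase, complete the called rises of the list. Slc22a27 rose by 1.32 ± 0.22 (SE, limma adjusted p = 0.00695), with 1.36 on chow and 1.28 under DEN/HFD. Without DEN/HFD saline 4, where it stood at 16.5 normalized counts, its effect under DEN/HFD was 0.97. Slc22a26 went from 0, 0 and 5.67 normalized counts to between 98.1 and 485 on chow, and stood at 1.05 to 23.6 with saline and 13.9, 20.7 and 95.8 with MCOPPB under DEN/HFD. Its effect was 1.67 ± 0.34 (SE, limma adjusted p = 0.0367), 2.69 on chow and 0.56 under DEN/HFD, where it was 0.20 without DEN/HFD MCOPPB 2. It was called in 6 of the 15 fits without 1 library (adjusted p up to 0.141, without chow saline 2). Gstt3 was called in 2 of the 15, and its effect of 0.68 was the smallest of the 8.

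Slc22a26 is also the called gene whose promoter window held matches to both the STAT5 and the D-box motif, and it is printed for that reason. The window lies on the minus strand at chr19:7802618-7802917 (GRCm38.p6), and capitals mark first the STAT5 match, beginning 141 bases before the start, and then the D-box match, beginning 8 bases after it.
Slc22a26: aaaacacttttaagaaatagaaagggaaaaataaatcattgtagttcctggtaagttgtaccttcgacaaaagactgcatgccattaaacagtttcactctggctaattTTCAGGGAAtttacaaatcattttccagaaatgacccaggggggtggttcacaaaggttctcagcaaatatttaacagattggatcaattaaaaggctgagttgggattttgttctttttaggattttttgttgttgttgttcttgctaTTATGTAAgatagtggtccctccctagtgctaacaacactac
RefSeq windows were found for 13 of the 16 called rises and 17 of the 27 called falls. The STAT5 motif (TTCNNNGAA, a palindrome) was in 2 of the 13, Slc22a26 and Ctsc, and in none of the 17, beside 8.27% of the windows of tested genes and 9.55% of all windows. The sterol motif (TCACNCCAC, both strands) was in 2 of the 13, Cyp2a4 and Ctsc, and in none of the 17, beside 1.51% and 1.44%. The D-box (TTATGTAA, both strands) was in 1 of the 13 and in 1 of the 17, Ugt2b1, beside 0.72% and 1.11%. No 2 of these motifs share letters at 1 position in the Slc22a26 window. A match in so short a window describes letters only.

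Other female-biased genes had positive effects without passing. Hao2, a peroxisomal hydroxyacid oxidase, had an effect of 0.90 (limma adjusted p = 0.0609) and A1bg, a plasma glycoprotein, one of 0.72 (0.0838), and in both the treatments did not overlap within either diet. Cyp2c69 had an effect of 1.71 (0.0583), 2.88 on chow and 0.44 under DEN/HFD. Beside 0.372% of all tested genes called (0.138% higher and 0.233% lower), 10 of 65 tested P450 genes were called, with 6 higher and 4 lower. The rises were Cyp17a1, Cyp2b9, Cyp2a22, Cyp2b13, Cyp2a4, all on the female-biased list, and the sterol enzyme Cyp51. The falls were Cyp4a12a, Cyp4a12b, Cyp2u1 and Cyp2d9, all on the male-biased list.

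**Figure D2:**
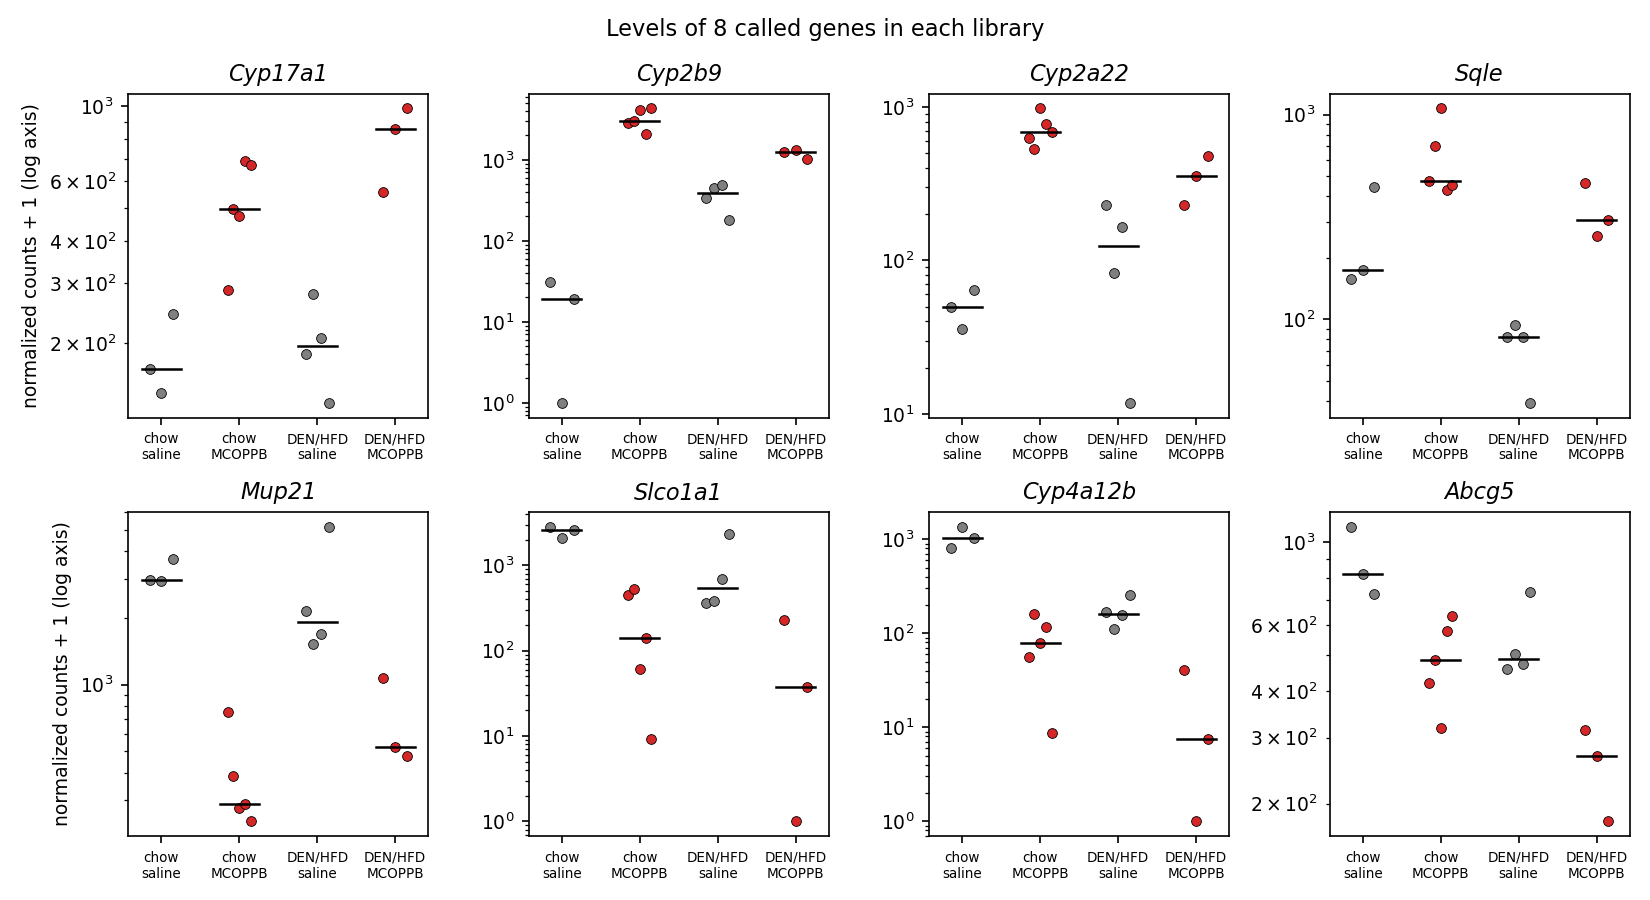
Each point is 1 library, with its normalized counts plus 1 on a log axis, for 8 called genes in the 4 groups (grey, saline; red, MCOPPB; bars, group medians). The upper 4 genes are higher and the lower 4 genes lower with MCOPPB in both diets. Treatments overlap within a diet only for Cyp2a22 (under DEN/HFD) and Sqle (on chow).

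The major urinary protein genes had the lowest median effect of all the lists. Of 18 tested members of the cluster on chromosome 4, 13 were called lower (72.2%, beside 0.233% of all tested genes). All 18 had a negative effect, and 17 were negative in both diets. The median effect was -2.37 (-2.63 on chow and -1.56 under DEN/HFD). Summed over all 22 listed members, tested or not, chow saline livers held 1103620 to 1411630 normalized counts and chow MCOPPB livers 138196 to 347756. Under DEN/HFD the saline livers held 874751, 998687, 1004110 and 4849580, and the MCOPPB livers 239976, 335676 and 611846. The treatments did not overlap in either diet, and DEN/HFD saline 4 stood far above every other library. Without that library the Mup median under DEN/HFD was -1.36, and 13 Mup genes were called, 12 of them among those called with it. The count fell to 8 without chow saline 2, DEN/HFD MCOPPB 2 or DEN/HFD MCOPPB 3.

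Mup21 had the smallest p among the Mup genes. It was at 2926, 2964 and 3686 normalized counts in chow saline and at 241, 276, 288, 386 and 755 in chow MCOPPB. With DEN/HFD it was at 1529, 1690, 2150 and 5172 with saline and at 474, 523 and 1067 with MCOPPB, again without overlap over all 15 livers. Its common effect was -2.32 ± 0.29 (SE, limma adjusted p = 0.00118).

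Mup20, the male pheromone darcin, was at 99355, 112338 and 122817 normalized counts in chow saline and at 2190, 6011, 6248, 7462 and 8252 in chow MCOPPB. Under DEN/HFD the saline livers held 75878, 196322, 219316 and 281330 and the treated livers 50779, 55459 and 85395, which overlapped in 1 liver of each treatment. Over both diets the effect was -2.96 ± 0.44 (SE, limma adjusted p = 0.00286), with -4.31 on chow and -1.48 under DEN/HFD. The difference of 2.82 between the diets had an unadjusted p of 0.000201 and did not pass (limma adjusted p = 0.136).

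Mup14 (-2.41 ± 0.33, SE, limma adjusted p = 0.00223) changed by -2.55 on chow and by -2.27 under DEN/HFD. Without DEN/HFD saline 4, which held 195177 normalized counts, its effect under DEN/HFD was -1.71. Mup14 was called in all 15 fits that left out 1 library and under every other setting tried. Mup19 had the largest fall of all called genes (-4.05 ± 0.59). It was at 114857, 154676 and 181043 normalized counts in chow saline and at 2486 to 27129 in chow MCOPPB, and at 45568 to 679921 in DEN/HFD saline beside 2986, 10276 and 22942 in DEN/HFD MCOPPB. Mup11 (-3.27), Mup12 (-3.27), Mup17 (-3.33) and Mup3 (-1.56) were called in every one of the 15 fits as well. Mup1 (-3.03), Mup7 (-4.0) and Mup22 (-1.59) were called in 6 of the 15 each, with an adjusted p of up to 0.119 (without DEN/HFD MCOPPB 2), and Mup16 (-1.68) in 4.

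Mup7 shows how far 1 library reached. Its DEN/HFD saline livers held 14752, 16872, 51961 and 1435780 normalized counts, the last in DEN/HFD saline 4, and its treated livers 805, 2720 and 12364. Its effect under DEN/HFD was -4.39 with that library and -2.90 without it. On chow it went from between 140735 and 203052 to between 3298 and 29054. The Mup genes are near copies of each other, so that the division of reads among them is uncertain and the family total is the firmer value.

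The promoters of Mup17 and Mup19, the most similar pair among 7 called Mup genes with a RefSeq window, show this likeness. Both lie on the minus strand of GRCm38.p6, at chr4:61595783-61596082 and chr4:61782175-61782474. Capitals mark the bases with no identical partner in the alignment, 17 over 307 aligned columns (94.5% identity), some of them at the ends, where the windows are offset.
Mup17: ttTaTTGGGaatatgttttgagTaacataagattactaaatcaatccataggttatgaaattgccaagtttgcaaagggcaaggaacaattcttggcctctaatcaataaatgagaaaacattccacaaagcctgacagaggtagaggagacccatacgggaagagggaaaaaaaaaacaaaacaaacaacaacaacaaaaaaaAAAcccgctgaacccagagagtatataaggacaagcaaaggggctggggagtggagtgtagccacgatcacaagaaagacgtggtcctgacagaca
Mup19: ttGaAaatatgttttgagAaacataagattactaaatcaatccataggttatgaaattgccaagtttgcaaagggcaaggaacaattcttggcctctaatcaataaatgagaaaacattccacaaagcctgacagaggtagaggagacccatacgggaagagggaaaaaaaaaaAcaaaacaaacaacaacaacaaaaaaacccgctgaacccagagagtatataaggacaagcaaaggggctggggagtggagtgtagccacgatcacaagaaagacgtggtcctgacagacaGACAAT
Mup17 fell by 3.33 and Mup19 by 4.05 on the log2 scale.

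Of the 20 other male-biased genes tested, 10 fell (50%, beside 0.233% of all tested genes) and none rose. All 20 had a negative effect, and 18 were negative in both diets, with a median of -1.16 (-1.29 on chow and -0.95 under DEN/HFD). Taken with the Mup genes, 38 of 38 male-biased genes had a negative effect and 23 were called. The called genes were Cyp4a12a and Cyp4a12b, Cyp2u1, Cyp2d9, Slco1a1, Ugt2b1, C6, Nudt7, Hsd3b5 and Serpina1e.

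Cyp4a12b, a fatty acid hydroxylase of male liver, had the smallest p of all 11568 genes. It was at 801, 1021 and 1359 normalized counts in chow saline and at 7.61, 54.6, 78.0, 116 and 158 in chow MCOPPB. DEN/HFD saline livers were already lower, at 111, 154, 166 and 257, and DEN/HFD MCOPPB livers were at 0, 6.60 and 39.8. The treatments did not overlap in either diet. The common effect was -2.43 ± 0.28 (SE, limma adjusted p = 0.000647). It was called in all 15 fits without 1 library, and was not called with no diet term in the fit (adjusted p = 0.055). Its near copy Cyp4a12a changed by -2.64 ± 0.46 (limma adjusted p = 0.00929), and reads of both may be shared.

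Slco1a1, a bile acid and steroid uptake transporter of male liver, was at 2094, 2590 and 2842 normalized counts in chow saline and at 8.25, 60.0, 141, 445 and 531 in chow MCOPPB. Under DEN/HFD the values were 362, 378, 698 and 2345 with saline and 0, 36.4 and 230 with MCOPPB. The lowest treated liver of each diet held almost none of the transcript. Over both diets it changed by -3.15 ± 0.49 (SE, limma adjusted p = 0.00399), with -3.47 on chow and -2.79 under DEN/HFD.

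Hsd3b5, a steroid reductase of male liver, was at 1335, 1804 and 1956 normalized counts in chow saline and at 0 to 119 in chow MCOPPB. Of the 4 DEN/HFD saline livers, 3 held 27.9, 48.4 and 66.3, while the library numbered DEN/HFD saline 4 held 2053. The treated DEN/HFD livers held 1.68, 6.59 and 7.96. The common effect was -3.18 ± 0.57 (SE, limma adjusted p = 0.0118), and the call was lost without chow saline 2 (adjusted p = 0.0559). Under DEN/HFD the effect was -1.97, and -0.92 without DEN/HFD saline 4.

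Serpina1e, a male-biased alpha-1-antitrypsin gene, changed by -3.83 ± 0.72 (SE, limma adjusted p = 0.0194). Its DEN/HFD saline livers spread from 1642 to 97923 normalized counts, with the highest again in DEN/HFD saline 4, and its treated livers stood at 203, 626 and 5130. Without that library its effect under DEN/HFD was -2.12 in place of -3.24. It was called in 11 of the 15 fits without 1 library (adjusted p up to 0.0705, without chow saline 2).

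The remaining called falls of this list were smaller. Cyp2u1, a fatty acid hydroxylase, changed by -1.01 ± 0.16, Ugt2b1, a glucuronosyltransferase, by -0.96 ± 0.15, and C6, a terminal complement component, by -1.37 ± 0.23. Nudt7, which hydrolyses coenzyme A in peroxisomes, changed by -1.09 ± 0.19, and Cyp2d9, a testosterone hydroxylase, by -1.39 ± 0.27. All but Cyp2d9 were called in each of the 15 fits, and Cyp2d9 in 10 (adjusted p up to 0.0785, without DEN/HFD MCOPPB 2). Egfr, the epidermal growth factor receptor, had an effect of -1.24 (limma adjusted p = 0.0828) and did not pass.

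**Figure D3:**
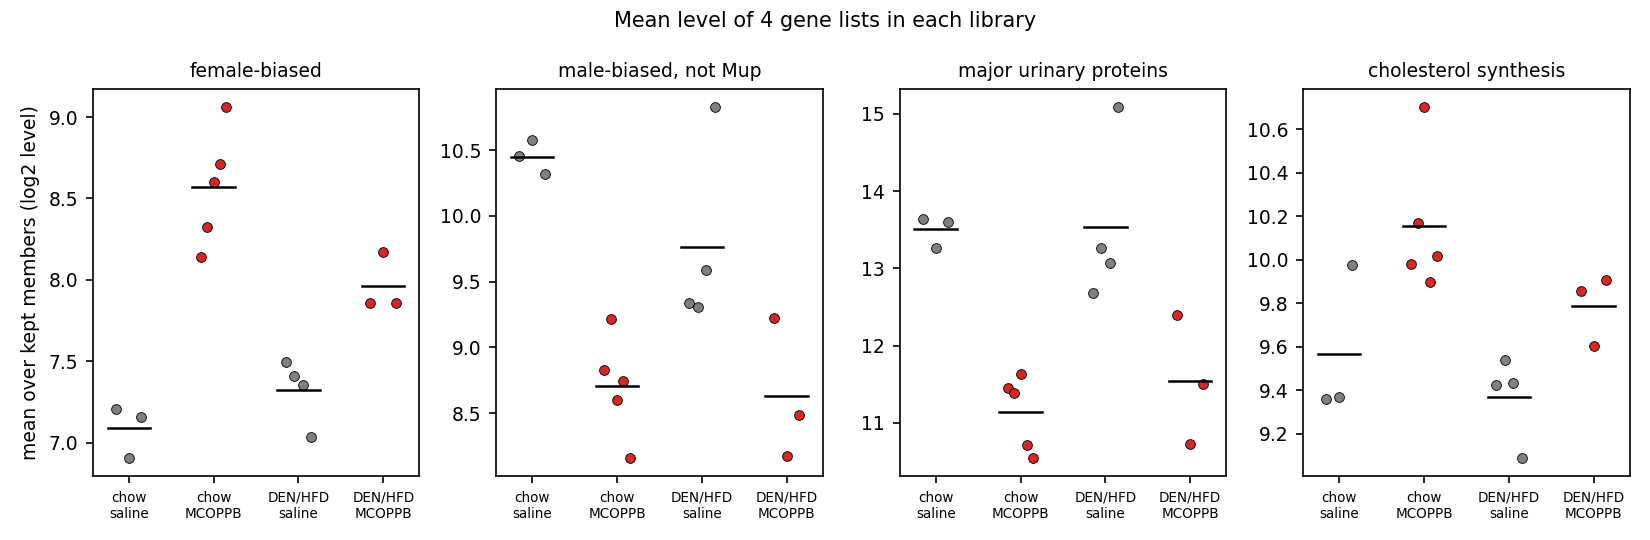
Each point is the mean log2 level of the tested members of a list in 1 library (y axis), in the 4 groups (grey, saline; red, MCOPPB; bars, group means). The female-biased list is higher and both male-biased lists are lower with MCOPPB in each diet without overlap, whereas for cholesterol synthesis chow saline 3 lies level with the lower treated chow livers. These plots show levels and carry no test.

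Of 26 genes of cholesterol synthesis, all tested, 3 rose with MCOPPB (11.5%, beside 0.138% of all tested genes) and none fell. The 3 were Sqle, Cyp51 and Idi1. In all, 23 had a positive effect and 21 were positive in both diets. The median effect was 0.50 (0.63 on chow and 0.32 under DEN/HFD), and under DEN/HFD it was 0.21 without DEN/HFD MCOPPB 3 and 0.23 without DEN/HFD saline 4. A single gene of the list was called without any 1 of chow saline 1, chow saline 2, DEN/HFD MCOPPB 1, DEN/HFD MCOPPB 3, DEN/HFD saline 1 or DEN/HFD saline 4. A further 14 members had a positive effect with an unadjusted p under 0.05, and none a negative one.

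Sqle, squalene epoxidase, performs the first oxygenation of the pathway. It was at 156, 174 and 443 normalized counts in chow saline and at 426, 453, 472, 706 and 1074 in chow MCOPPB, overlapping through chow saline 3. Under DEN/HFD it was at 38.1, 81.4, 81.4 and 93.3 with saline and at 254, 306 and 465 with MCOPPB, far apart. The common effect was 1.29 ± 0.21 (SE, limma adjusted p = 0.00683), with 1.09 on chow and 1.5 under DEN/HFD, and it was called in all 15 fits without 1 library.

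Cyp51, the lanosterol demethylase, was at 701, 839 and 1731 normalized counts in chow saline and at 1560, 1715, 1766, 1816 and 3446 in chow MCOPPB. Under DEN/HFD it was at 545, 670, 696 and 826 with saline and at 1354, 1468 and 1525 with MCOPPB, without overlap. Its effect was 0.95 ± 0.19 (SE, limma adjusted p = 0.0313). Idi1, the isopentenyl diphosphate isomerase, changed by 1.06 ± 0.21 (limma adjusted p = 0.0335). Both calls were less stable: each held in 7 of the 15 fits without 1 library, with an adjusted p of up to 0.106 for Cyp51 and 0.113 for Idi1 (both without chow saline 2).

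Other enzymes and regulators of the pathway did not pass. Hmgcs1, which makes HMG-CoA early in the pathway, had an effect of 1.19 (limma adjusted p = 0.0903), and Fdft1, squalene synthase, one of 0.76 (0.0855). Srebf2, the gene of SREBP2, had an effect of 0.39 (0.517). The list was counted on steps of synthesis together with its regulators, and all 3 called genes are enzymes.

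Several called genes stood on neither the sex-biased lists nor the cholesterol synthesis list, and whether they are sex-biased was not examined. Abcg5, which with Abcg8 forms the transporter that exports cholesterol and plant sterols into bile, fell. It was at 727, 823 and 1098 normalized counts in chow saline and at 318, 418, 484, 576 and 633 in chow MCOPPB. Under DEN/HFD it was at 456, 472, 501 and 732 with saline and at 178, 267 and 313 with MCOPPB, without overlap in either diet. Its effect was -0.83 ± 0.15 (SE, limma adjusted p = 0.0176), nearly equal on chow (-0.77) and under DEN/HFD (-0.90). It was called in 13 of the 15 fits, not without chow saline 1 (adjusted p = 0.0576) or DEN/HFD MCOPPB 3. Its partner Abcg8 had an effect of -0.61 and did not pass (limma adjusted p = 0.205).

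Of the bile acid list, 28 genes were tested. Slco1a1 and Abcg5 were the 2 called, both lower (7.14%, beside 0.233% of all tested genes). The list had 13 positive and 15 negative effects with a median of -0.02. Cyp7a1, the rate-limiting enzyme of bile acid synthesis, had an effect of 0.51 (limma adjusted p = 0.942), with 1.60 on chow and -0.68 under DEN/HFD. The 2 estimates differed in sign, but Cyp7a1 was not among the 8 genes called for a difference between the diets.

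Further called rises were 9030619P08Rik, Acnat2, Pcp4l1, Ctsc and Nt5e. The transcribed pseudogene 9030619P08Rik changed by 1.00 ± 0.15 (SE, limma adjusted p = 0.00239) and was called in all 15 fits. Acnat2, an amino acid acyltransferase of peroxisomes, changed by 1.18 ± 0.24 (limma adjusted p = 0.0367) and was called in 4 of the 15 (adjusted p up to 0.119, without chow saline 2). Pcp4l1, a relative of the calmodulin regulator Pcp4, changed by 0.96 ± 0.18 (limma adjusted p = 0.0244) and was called in 11 of the 15 (up to 0.0846, without chow saline 3).

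Ctsc, the lysosomal protease cathepsin C, rose by 0.82 and Nt5e, the ectonucleotidase CD73, by 0.90. Ctsc was called in 6 and Nt5e in 3 of the 15 fits. Further called falls were Srd5a1, the steroid 5-alpha reductase (-0.60), Smad9, a transducer of bone morphogenetic proteins (-0.83), and Serpina4-ps1, a serpin pseudogene (-1.53). Serpina4-ps1 is an example of a call carried by chow: its effect was -2.31 there and -0.67 under DEN/HFD, and it was called in 6 of the 15 fits (adjusted p up to 0.0914, without chow saline 3). Smad9 was called in 3 and Srd5a1 in 2 of the 15, and Srd5a1 had the largest adjusted p of the called genes (0.0499).

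Regulators of the growth hormone axis showed no call. Of 20 tested members, 12 had a positive and 8 a negative effect, with a median of 0.07. Prlr, the prolactin receptor, which is female-biased, had the largest effect at 1.08 ± 0.24 (SE, limma adjusted p = 0.0677). Esr1, the estrogen receptor, was at 0.60 (0.251), and Cux2, a repressor active in female liver, at 0.80 (0.591). The male-biased repressor Bcl6 was at -0.57 (0.88). Stat5b (0.18) and Ghr, the growth hormone receptor (-0.14), lay close to 0. These are transcript levels and do not measure the release of the hormone or the activity of STAT5b.

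Targets of CAR and PXR, nuclear receptors that respond to foreign compounds, had 29 positive and 8 negative effects among 37 tested members, and none was called. The median was 0.47 on chow and -0.06 under DEN/HFD, and 16 of the 37 had the same sign in both. Cyp2b10, the classical CAR target, was at 0.45 (limma adjusted p = 0.811). Cyp2c38 was at 0.97 (0.0948), with no overlap of treatments in either diet.

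Genes that mark senescent cells did not move together. Of the senescence and secretory list, 24 of 40 members were tested, with 14 positive and 10 negative effects, a median of 0.02 and none called. At an unadjusted p under 0.05, 1 was higher (Icam1) and 2 were lower (Igfbp5 and Vegfa). Cdkn1a, the gene of the cyclin-dependent kinase inhibitor p21, had a common effect of 0.18 ± 0.23 (SE, limma adjusted p = 0.969), made of -0.39 on chow and 0.80 under DEN/HFD. The common effect therefore averages opposite signs. On chow it stood at 12.6, 17 and 43.4 normalized counts with saline and at 0 to 15.1 with MCOPPB. In DEN/HFD livers it stood at 12.6, 32.8, 65.0 and 76.0 normalized counts with saline and at 67.7, 115 and 195 with MCOPPB.

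Cdkn2a, which encodes p16, was above 0 in 7 of the 15 libraries and lay below the filter (an exact permutation test within the diets, two-sided, gave p = 0.609 over 1960 arrangements, of which the smallest possible p is 0.00051). Oprl1, which encodes the receptor bound by MCOPPB, and Pnoc, which encodes its peptide ligand, were at 0 in all 15 livers and were not detectable at this depth. None of the 8 genes of opioid receptors and peptides passed the filter. Targets of p53 had 15 positive and 6 negative effects among 21 (median 0.07), the BCL2 family 8 and 8, and the cell cycle list 11 and 8 among 19, with no call in any of them.

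Markers of other liver cells gave no call over both diets but were not all level. The 14 Kupffer cell markers had 12 positive effects with a median of 0.44, and 9 were positive in both diets. The median was 0.54 on chow and 0.17 under DEN/HFD. Under DEN/HFD it was 0.03 without DEN/HFD MCOPPB 2 and 0.33 without DEN/HFD MCOPPB 1. Beside 389 of the 11568 tested genes, 9 of the 14 markers had a positive effect with an unadjusted p under 0.05. Their summed level was 1895 to 2643 normalized counts in chow saline and 3192 to 4890 in chow MCOPPB, without overlap, and 2905 to 5516 in DEN/HFD saline and 3448 to 6014 in DEN/HFD MCOPPB, with overlap. Csf1r (0.44), C1qa (0.62) and Clec4f (0.49) were among them and did not pass. The part of these cells in the results above was not tested.

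Red blood cell transcripts were at 3712 to 10753 normalized counts in chow saline, 7421 to 13099 in chow MCOPPB, 2739 to 16956 in DEN/HFD saline and 3824 to 4677 in DEN/HFD MCOPPB, overlapping on chow and under DEN/HFD. Hepatocyte markers had 10 positive and 21 negative effects with a median of -0.03. Stellate cell and fibrosis markers had a median of 0.06 and endothelial markers one of 0.10. Few lymphocyte, neutrophil, bile duct or fat cell markers reached the filter: 4 of 16 T and NK cell markers, 5 of 9 B cell markers, 2 of 10 neutrophil markers, 3 of 10 bile duct markers and 2 of 6 adipose markers.

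Interferon response genes had mostly positive effects in both diets, and none was called. Of 50 tested members, 42 had a positive effect and 37 were positive in both diets, with a median of 0.23 (0.24 on chow and 0.18 under DEN/HFD). The DEN/HFD median was 0.10 without DEN/HFD saline 4, 0.11 without DEN/HFD saline 3 and 0.29 without DEN/HFD saline 2. Of the 50 genes, 18 had an unadjusted p under 0.05 with a positive effect beside 1 with a negative one, Mx1. Over all 11568 genes the corresponding numbers were 389 and 363. The smallest p belonged to Cmpk2 (0.52, limma adjusted p = 0.232).

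Clock genes had more negative than positive effects. Of 23 tested members, 16 had a negative effect, and the median was -0.17, with 0.07 on chow and -0.42 under DEN/HFD. Dbp, an output regulator of the clock that binds D-box motifs, was at -0.97 (limma adjusted p = 0.501), and Bhlhe41 at -0.92 (0.184) with near-equal effects in both diets. No clock gene was called. Genes of lipogenesis (22 tested, median -0.04), glucose metabolism (27, 0.00), acute phase (29, 0.27), NRF2 targets (30, 0.15), unfolded protein response (28, 0.02) and ribosomal proteins (76, -0.07) held no called gene either.

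Among targets of PPARalpha and fatty acid oxidation genes, 41 were tested and none was called. Cyp4a31 (1.06, limma adjusted p = 0.0544) and Cyp4a14 (1.72, 0.0644), which hydroxylate fatty acids, came closest. Both were positive on chow and under DEN/HFD, while their male-biased relatives Cyp4a12a and Cyp4a12b fell.

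**Figure D4:**
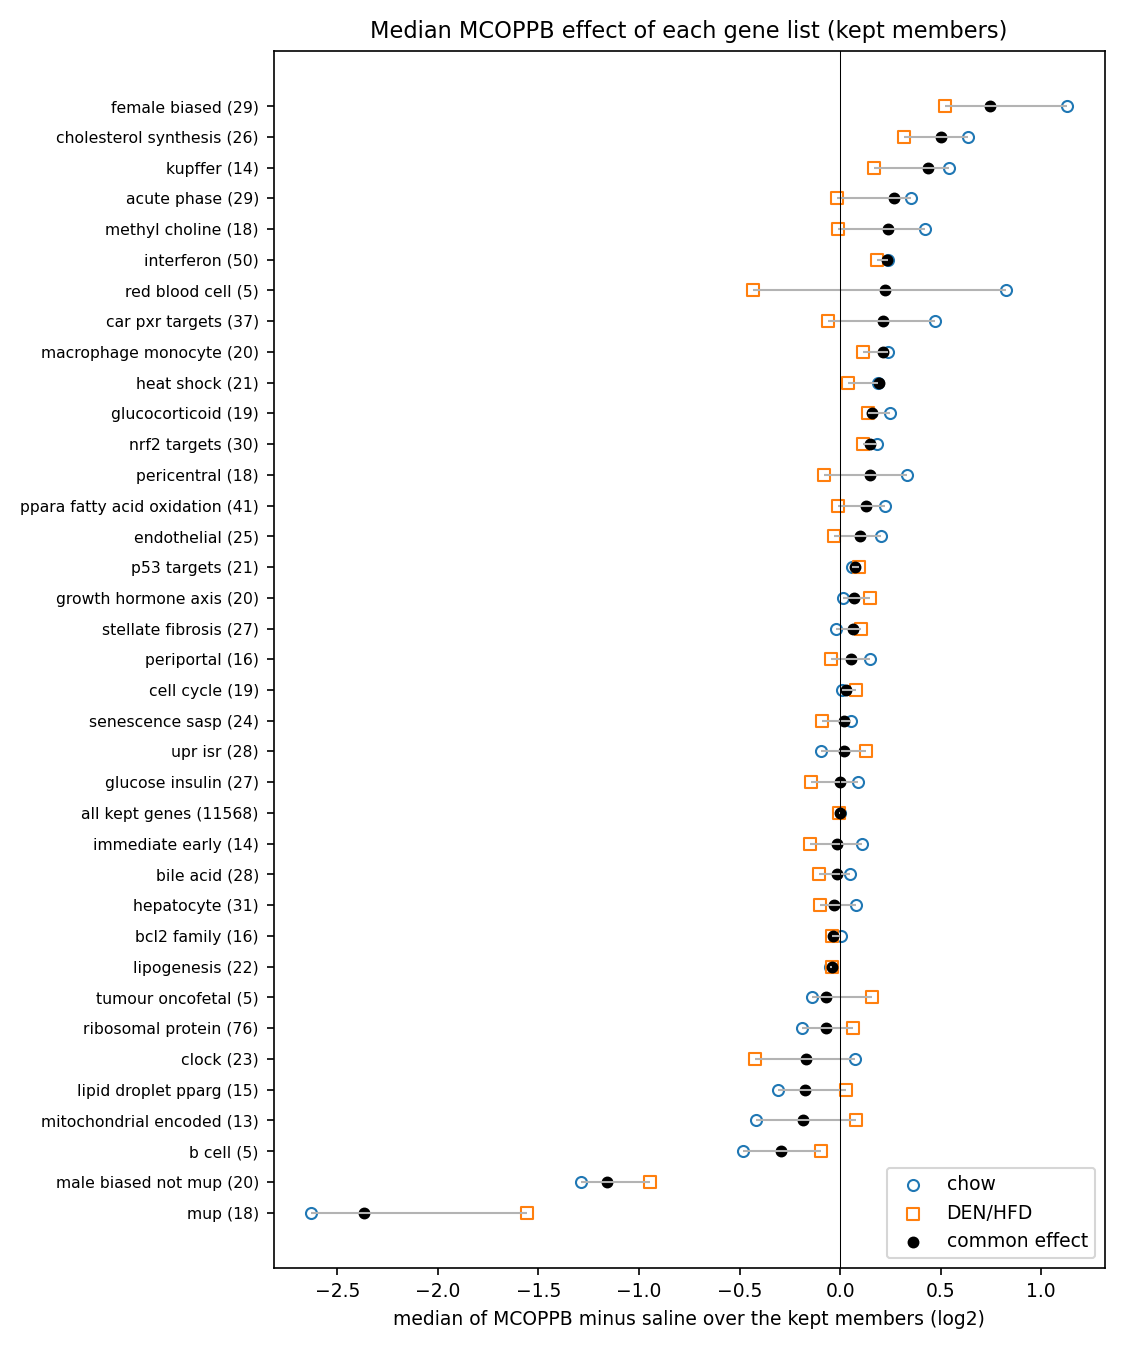
Points give the median MCOPPB minus saline difference (x axis, log2) over the tested members of each list with at least 5 of them (number in brackets), for the common effect and within each diet. The Mup and male-biased lists lie to the left of 0 and the female-biased and cholesterol lists to the right in both diets, while the medians of the clock, CAR and PXR target and red blood cell lists differ in sign between the diets.

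The livers of the 2 diets share no animal, so the genes chosen in 1 diet could be read in the other. Both diets share 1 estimate of the spread of each gene, taken over all 15 libraries. The p-values read in the other diet are therefore not independent of the choice. Of the 37 genes called for MCOPPB on chow, 31 (83.8%) had the same sign under DEN/HFD, beside 47.3% of all tested genes. Their median size fell from 2.36 on chow to 0.67 under DEN/HFD, all 37 were smaller there, and 17 had an unadjusted p under 0.05 in the same direction. A looser choice on chow, an unadjusted p under 0.001, gave 61 of 77 (79.2%). In the reverse reading, of the 37 genes with the smallest p under DEN/HFD, 26 (70.3%) had the same sign on chow, with a median of 0.38 there beside 1.28. Of the 27 genes with an unadjusted p under 0.001 under DEN/HFD, 17 (63.0%) did, with a median of 0.20 on chow.

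Over all tested genes, the chosen ones included, the effects on chow and under DEN/HFD were at most weakly related. Across these 11568 genes they had a Pearson correlation of 0.15 and a Spearman correlation of -0.03, given as a description since genes are not independent. The median size of the common effect was 0.11 over all tested genes, and a low correlation among mostly small effects does not show that the diets differ. Genes outside the chosen ones were not tested apart. Of the 67 tested genes on the sex-biased and Mup lists, 62 (92.5%) had the same sign in both diets.

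In groups of 3 to 5 livers, 8 genes (0.0692% of those tested) passed limma's test of a difference between the diets. Genes that did not pass are not thereby shown to respond alike in both. The genes that passed were few. Of these, 2 were among the 43, Cyp2b9 and Cyp2b13, both larger on chow. The other 6, named after their values were seen, were Cyp2c40, Elovl3, Usp2, Dclre1a, Gm43302 and Dtx4, and none of them had a called common effect. Cyp2c40 is a female-biased P450 and Elovl3 a male-biased fatty acid elongase, and both moved with their lists on chow but not under DEN/HFD. Cyp2c40 changed by 2.81 and 0.06, and Elovl3 by -2.78 and 0.47. The count of 8 ranged from 2 to 12 on leaving out 1 library, and was 5 or fewer without any 1 of 12 of the 15 libraries.

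Elovl3 averaged 689 ± 153 normalized counts in chow saline (SD, n = 3) and 43.2 ± 24.8 in chow MCOPPB (n = 5), and 289 ± 70.9 (n = 4) and 453 ± 229 (n = 3) under DEN/HFD. Its 3 treated DEN/HFD livers were on average above the saline livers. The test of the difference gave a limma adjusted p = 0.000535.

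Of the 52 genes whose treatments did not overlap within either diet, 30 were called and 22 were not, 15 higher and 7 lower. Named after their values were seen, the uncalled ones with the smallest p were Cyp4a31, Hao2, Adgrf1, A1bg, Cyp2c68, Cyp2c38 and Aldh1b1. Adgrf1, an adhesion receptor, had an effect of -0.64 (limma adjusted p = 0.0695), Cyp2c68 one of 0.72 (0.0854) and Aldh1b1, a mitochondrial aldehyde dehydrogenase, one of 0.61 (0.108). Separation without overlap and a call thus chose partly different genes, and over all 15 livers irrespective of diet 14 of the tested genes (0.121%) separated, 12 of them called.

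**Figure D5:**
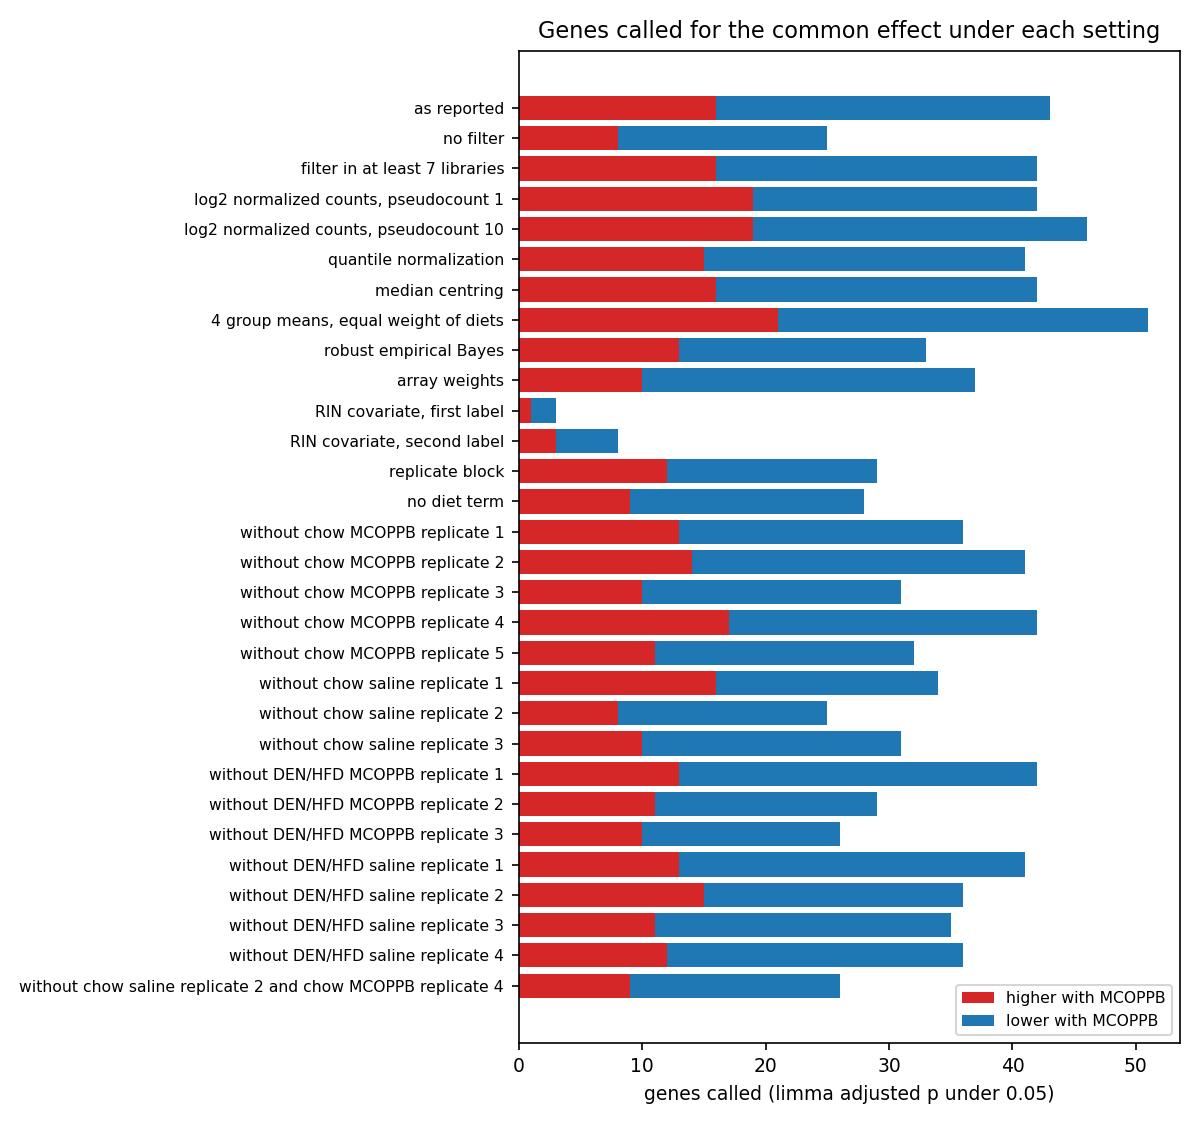
Bars give the number of genes called for the common effect (x axis), split into higher and lower with MCOPPB, in the reported fit and in 29 others, each named on the y axis. Falls outnumber rises in every fit, and the counts run from 3 with the first RIN as a covariate to 51 with equal weight of the diets.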

How the data were processed

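RNA of 15 mouse livers was sequenced from 250 ng as directional single reads of 75 nt, per the labels' protocols. Trimmomatic, STAR 2.7.0e, HTSeq and DESeq2 with GRCm38/mm10 are named in the submitters' processing notes. The deposited table holds variance-stabilised log2 values per gene, whose lowest value, 5.49, stands for 0 reads. Whole reads could not be recovered. Normalized counts were obtained here by inverting the transformation, and depth was estimated from them, so no counting interval is given.

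Of 54281 gene identifiers, 54107 were named from GENCODE M21. Genes were kept where 3 or more libraries exceeded that lowest value by 1 log2 unit or more. The log2 values were fitted with limma 3.58.1 in R 4.3.3 (intercept, diet and treatment, moderated with a mean trend, Benjamini-Hochberg adjustment, adjusted p under 0.05). A fit of the 4 groups gave the effects within diets and their difference. The code was tested on simulated data.

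Named genes had to be called with the same sign in both diets: the 12 largest rises and falls, the 6 with the highest level, up to 3 per list with at least 2 calls and the 6 with the smallest p for a difference between diets, plus Oprl1, Pnoc, Cdkn1a and Cdkn2a. Genes named beyond these are other called genes or list members given with their values. The lists and the comparison were chosen with earlier results of these data known. Promoter windows are from RefSeq (GRCm38.p6). P-values measure the spread between these libraries. Alternatives covered filters, scaling, covariates and left-out libraries.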

Additional observations from a re-analysis of the deposited data

Results flagged for a closer look

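In 68 sets of 4 or 5 libraries of a group, 5 held a library far from the others on the log2 scale, where chance gives about 1 in 20. Hsd3b5 stood at 2053 normalized counts in DEN/HFD saline 4, far above the other 3 livers of its group. Cyp4a12a stood at 2486 in DEN/HFD saline 1, and Cyp51 at 3446 in chow MCOPPB 3, each the highest of its group. Mup20 stood at 2190.0 in chow MCOPPB 5, the lowest of its group. Cdkn1a stood at 0 in chow MCOPPB 1.

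The effect of MCOPPB differed between the diets for Cyp2b9, by -3.93 on the log2 scale (DEN/HFD minus chow), and for Cyp2b13, by -1.93, by limma's test of the difference itself. In both the DEN/HFD saline livers stood above the chow saline livers.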

How the results depend on the processing

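All 43 called genes kept their sign in every setting that tested them, which is favoured because the same libraries had chosen them. Against 43 genes (16 higher, 27 lower), 25 were called with no filter (8 and 17), 3 with the first RIN (1 and 2), 8 with the second (3 and 5) and 28 with no diet term (9 and 19). Array weights gave 10 higher and 27 lower, a share of rises of 27.0% beside 37.2%. Leaving out 1 library gave 25 to 42 in all, 8 to 17 higher and 16 to 29 lower. Without both chow saline 2 and chow MCOPPB 4, a setting chosen after seeing the data, 26 were called (9 and 17). The 8 genes with a difference between diets became 2 with no filter, 4 with either pseudocount (1 or 10) and 2 to 12 on leaving out 1 library. The common effect of Cdkn1a, 0.18, changed sign with a pseudocount of 1 (-0.00139), the second RIN (-0.21) and no diet term (-0.00999). The cause was not tested in any of these.

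Same-numbered libraries of 2 groups had a mean correlation of deviations of -0.03 over 19 pairs (-0.38 to 0.24), beside 0.01 over 64 others (-0.55 to 0.44). These values cannot show whether the animals were paired. With the replicate block 29 genes were called, 12 higher and 17 lower, 27 of them among the 43. Values of named genes stayed on their side of the threshold in 729 cases, lost a call in 191 and reversed in 3. The lowest depth was 9.33 M reads, which limits genes near 0 such as Cdkn2a.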
